A study of Mus musculus with 6 samples.

Results

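The transcripts of 10 cytokine genes were followed in sorted mouse mammary carcinoma cells. They were the interleukin-1 family members Il1a, Il1b, Il1rn and Il33, the tumour necrosis factor gene Tnf, the interleukin-6 family members Il6 and Lif, and the colony-stimulating factors Csf1, Csf2 and Csf3. The 10 genes are among 15973 protein-coding genes that the authors compared and among 53379 gene IDs with counts. They were chosen by name, with the difference between the sorted populations already known, so the values and calls given for that difference describe them and support no conclusion about them. All 6 libraries came from the 4T1-T VM sub-clone of the 4T1 line, a single clone grown in culture with no host cells. Cells were serum-starved overnight and given acetylated low-density lipoprotein (acLDL) labelled with Alexa-488 at 10 ug/mL for 4 h. After washing they spent 1 h in complete growth medium and were sorted by fluorescence. The 25% with the strongest signal formed the acLDL-high population and the 25% with the weakest formed the acLDL-low population, so both had received the lipoprotein. Each population had 3 replicates, and libraries with the same replicate number were taken as a pair, 1 from each population. The sample titles give the number only, and a replicate number is called an occasion below. No allele or drug distinguished the groups.

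Interleukin-1 alpha, interleukin-1 beta and tumour necrosis factor are alarm cytokines that act through NF-kB and MAP kinase signalling and induce other cytokines, among them interleukin-6 and the colony-stimulating factors. Tumour cells that release M-CSF, GM-CSF and G-CSF, the products of Csf1, Csf2 and Csf3, drive the production and recruitment of macrophages and granulocytes, and the 4T1 model is known for the granulocyte expansion that it causes in mice. Such transcripts are usually short-lived, because AU-rich elements in their 3′ untranslated regions (3′ UTRs) recruit decay factors.

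The libraries held between 70263372 and 94216786 counts, so 3 counts amounted to between 0.0323 and 0.0429 CPM, the count per 1000000 counts of the scaled library. In the labelled cancer cells, the summed level of 10 mammary epithelial markers lay between 3372 and 6206 CPM over the 6 libraries, with Krt5 at 0 counts. The claudin genes Cldn3, Cldn4 and Cldn7 of this list were higher in the acLDL-high population, with log2 fold changes of 0.28, 0.53 and 0.30, and the other 6 tested did not pass. Of 19 myeloid markers, 16 were under 1 CPM in every library and Tyrobp, Adgre1, S100a9 and Ly6g were at 0. Their sum was 19.5 to 22.5 CPM in acLDL-low and 20.5 to 24.8 CPM in acLDL-high cells, and Cd14, the endotoxin co-receptor, was the myeloid marker that passed the test (log2 fold change 0.32, adjusted p = 0.0246, quasi-likelihood test of edgeR, Benjamini-Hochberg adjusted). Lymphoid markers summed to at most 0.329 CPM, with 6 of 8 at 0. The 10 endothelial markers summed to 6.36 to 8.11 CPM, with 8 of them under 1 CPM in every library and Emcn and Cldn5 at 0. The 8 fibroblast markers summed to 28.4 to 43.1 CPM, with 7 under 1 CPM in every library and Thy1, Lum and Col3a1 at 0. Most of the fibroblast sum was Pdgfra, with a mean of 34.9 CPM in acLDL-low and 37.1 CPM in acLDL-high cells. The part of these markers in the cytokine levels was not tested.

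The AU-rich elements of the members were read from the 3′ UTRs of the transcripts, and the stretches with the densest repeats are shown because AU-rich repeats are a known feature of short-lived cytokine messages. The pentamer ATTTA is in capitals, and the nonamer TTATTTATT, which holds a pentamer, was counted as well. Each line gives at most 30 bases of the sense strand from GENCODE transcripts on GRCm38, with T for U.
Tnf: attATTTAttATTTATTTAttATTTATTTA
Csf2: tttaaatATTTATTTATTTATTTATTTAtt
Csf3: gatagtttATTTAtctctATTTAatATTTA
Il1b: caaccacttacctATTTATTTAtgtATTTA
Il6: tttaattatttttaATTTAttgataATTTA
Il1a: attttatctatgtATTTAtaaatatATTTA
Lif: agaagcaaaggggcctttATTTAttATTTA

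Csf2 had the densest repeats, with 9 pentamers and 4 nonamers in a 3′ UTR of 317 bases. Tnf had 8 pentamers and 5 nonamers in 764 bases, and Lif had 7 pentamers and 2 nonamers in 3180 bases. The nonamer was thus in 3 of the 10 members. It was in 7.25% of the 12503 tested genes with a 3′ UTR, and in 7.04% of the 8426 whose 3′ UTR was as long as those of the members. At least 3 nonamers were in Tnf and Csf2 and in 0.528% of the 12503 genes. Per kilobase, the pentamer occurred 28.4 times in Csf2, 14.1 times in Il6, 10.5 times in Tnf, 8.97 times in Csf3 and 8.71 times in Il1b. It was sparser in Il1a at 2.72, Lif at 2.20, Csf1 at 1.89 and Il33 at 1.80 per kilobase, and Il1rn had 0 in 1306 bases. The median of the members was 5.72 per kilobase, against 1.42 for the genes in the same range of 3′ UTR length. A match is a description of the letters and does not show that a decay factor binds.

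**Figure D1:**
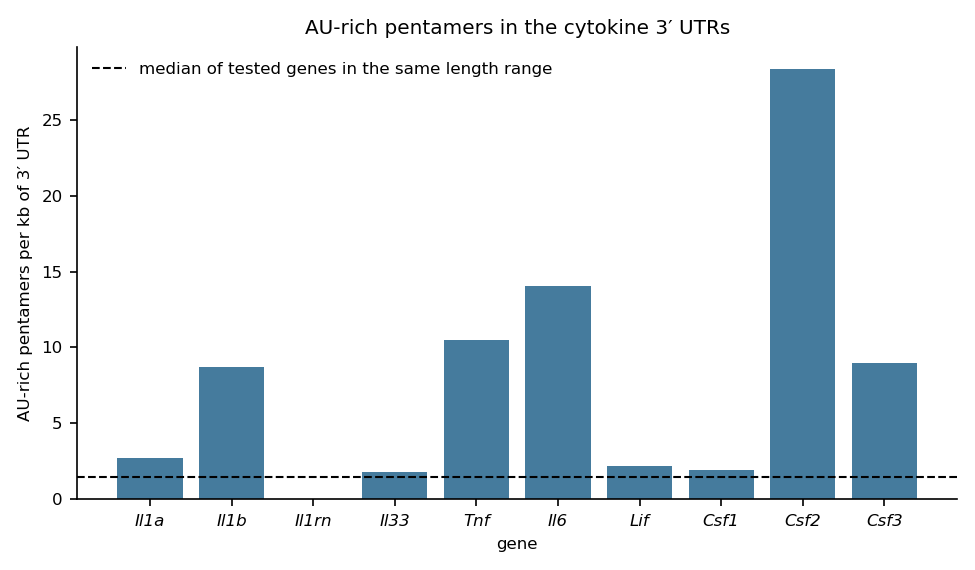
The bars give the number of AU-rich pentamers per kilobase of 3′ UTR of each member, counted on the sense strand, and the dashed line gives the median of tested genes with 3′ UTRs in the same length range (1.42 per kilobase). Csf2 stands at 28.4 per kilobase and Il1rn at 0.

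The promoters of Il1a, Tnf, Il6 and Csf1 are shown because these members span the response, with Il1a having the largest log2 fold change of the members and Il6 varying in sign from pair to pair. Each line holds the 250 bases before the transcription start of the RefSeq annotation (GRCm38.p6), read 5′ to 3′ on the gene's strand. Capitals mark matches to the TATA box TATAAA (gene strand only) or, on either strand, to the AP-1 motif TGANTCA, the C/EBP motif TTNNGCAA, the CK-1 core GAGATTCC, which is an element of cytokine promoters, and the NF-kB consensus.
Il1a (chr2:129309973-129310222, minus strand): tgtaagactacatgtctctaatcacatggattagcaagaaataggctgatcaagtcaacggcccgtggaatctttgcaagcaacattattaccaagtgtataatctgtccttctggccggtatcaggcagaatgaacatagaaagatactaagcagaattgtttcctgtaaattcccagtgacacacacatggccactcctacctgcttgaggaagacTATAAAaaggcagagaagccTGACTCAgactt
Tnf (chr17:35202008-35202257, minus strand): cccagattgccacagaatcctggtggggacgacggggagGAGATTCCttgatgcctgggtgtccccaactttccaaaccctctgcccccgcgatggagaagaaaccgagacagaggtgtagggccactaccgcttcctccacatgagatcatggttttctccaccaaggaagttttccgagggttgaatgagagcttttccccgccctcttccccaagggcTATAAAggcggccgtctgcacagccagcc
Il6 (chr5:30012864-30013113, plus strand): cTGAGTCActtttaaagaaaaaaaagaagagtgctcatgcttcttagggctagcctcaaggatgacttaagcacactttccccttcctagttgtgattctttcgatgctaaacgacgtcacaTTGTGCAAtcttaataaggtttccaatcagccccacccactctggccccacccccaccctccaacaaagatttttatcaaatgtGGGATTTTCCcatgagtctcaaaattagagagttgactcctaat
Csf1 (chr3:107760470-107760719, minus strand): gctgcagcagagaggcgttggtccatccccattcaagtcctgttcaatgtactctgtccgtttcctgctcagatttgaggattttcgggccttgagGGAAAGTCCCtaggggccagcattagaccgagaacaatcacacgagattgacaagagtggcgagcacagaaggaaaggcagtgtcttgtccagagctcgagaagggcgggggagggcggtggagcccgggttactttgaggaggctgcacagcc

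The Il1a window held a TATA box from -32 to -27 and an AP-1 match from -12 to -6, counted back from the start. Tnf held a TATA box from -29 to -24 and the CK-1 core from -211 to -204. Il6 held the NF-kB consensus from -44 to -35, a C/EBP match from -128 to -121 and an AP-1 match from -249 to -243. In Csf1 the NF-kB consensus lay from -154 to -145, on the other strand. Il1rn had 3 windows listed and Il33 had 2, and the matches given are those of 1 window for each gene. Of the 10 members, 9 had an entry, and Csf3 had none. The NF-kB consensus was in 3 of them (Il6, Lif and Csf1) and in 7.01% of 27025 promoters, and the AP-1 motif was in 4 (Il1a, Il1rn, Il6 and Lif) and in 6.87%. The letters TATAAA were in 4 members (Il1a, Il1b, Il33 and Tnf) and in 8.12% of promoters, at any place in the window. In Il33 they lay from -203 to -198, against -31 to -26 in Il1b, so the Il33 match is not read as a TATA box. The C/EBP motif was in 2 members (Il6 and Csf2) and in 9.55% of promoters, and the CK-1 core in 1 (Tnf) and in 0.696%. The Csf2 window lay wholly upstream of the GENCODE start of the gene, 232 bases away, so the bases nearest that start were not searched. The matches counted or missing for Csf2 therefore do not describe those bases. For every member, a match does not show that a factor binds, and a miss says nothing of bases outside the 250 searched.

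The level of each member was compared per kilobase of exon, as CPM divided by the exon length in kilobases (RPKM). Csf3 led with a mean of 152.7 RPKM over the 6 libraries, followed by Lif at 112.5, Csf1 at 66.6, Csf2 at 18.1 and Il1a at 16.0. Lower down were Tnf at 1.30 RPKM, Il33 at 0.440, Il1b at 0.219, Il6 at 0.132 and Il1rn at 0.0153. Neighbours in this order mostly overlapped in their ranges over libraries. The exceptions in both populations were Csf1, which lay above Csf2, and Il1a, which lay above Tnf, and in acLDL-high cells Il6 also lay above Il1rn. The messages of Csf3, Lif and Csf1 thus led the order in both populations, while Csf2 and Il1a overlapped. Il6, Il1b and Il1rn had at most 77 counts in any library.

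**Figure D2:**
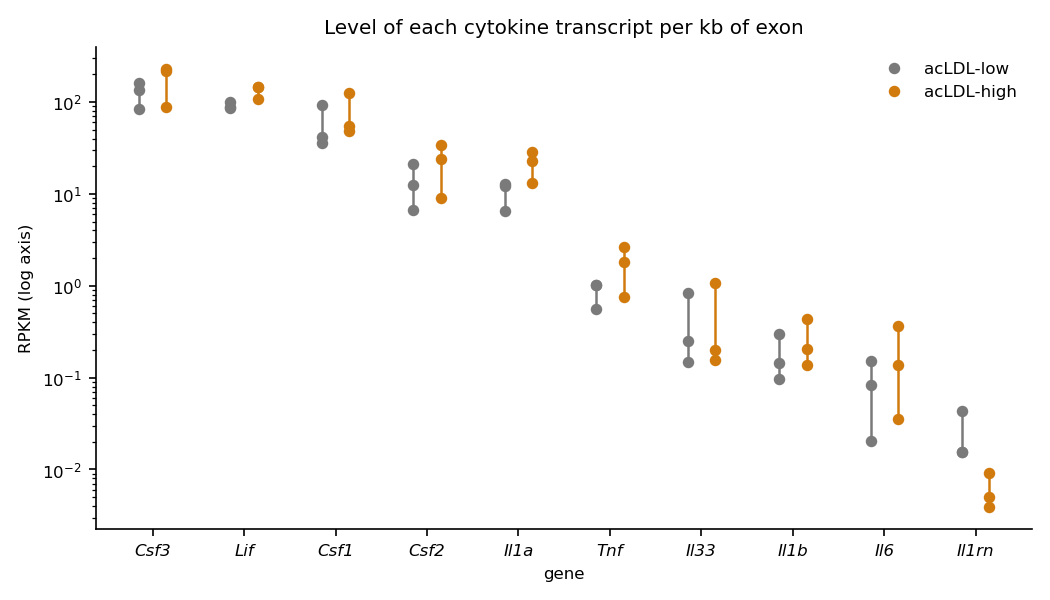
Each point is the level of a member in 1 library in RPKM on a log axis, with grey for the 3 acLDL-low and orange for the 3 acLDL-high libraries, and the line spans the range. The members fall from Csf3, with a mean of 152.7 RPKM, to Il1rn at 0.0153 RPKM, with clear steps below Csf1 and below Il1a.

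Between the populations, Il1a, Tnf, Lif, Csf1, Csf2 and Csf3 were higher in acLDL-high cells, by 0.43 to 1.02 on the log2 scale. These 6 of the 9 members that could be tested passed an adjusted p of 0.05 in the quasi-likelihood test of edgeR, blocked by replicate number, all of them upwards. Of all 12572 genes tested, 4.75% passed, 3.43% being higher and 1.32% lower in acLDL-high cells. Because this contrast was known when the members were chosen, nothing is read from their count. The median log2 fold change of the 9 members was 0.53, against 0.002 over all genes tested. In all 3 pairs, 7 of the 9 were higher in acLDL-high cells (Il1a, Il1b, Tnf, Lif, Csf1, Csf2 and Csf3), as were 20.9% of all genes tested. In bulk RNA, fewer cells that express a gene and less of its RNA per cell cannot be told apart. Csf3 did not pass in DESeq2, and Tnf and Csf3 did not pass without replicate 3, where their log2 fold changes were 0.67 and 0.43. Without the replicate block none of the 9 passed, as was the case for all 12329 genes in that edgeR fit, of which 45 had an unadjusted p under 0.05.

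**Figure D3:**
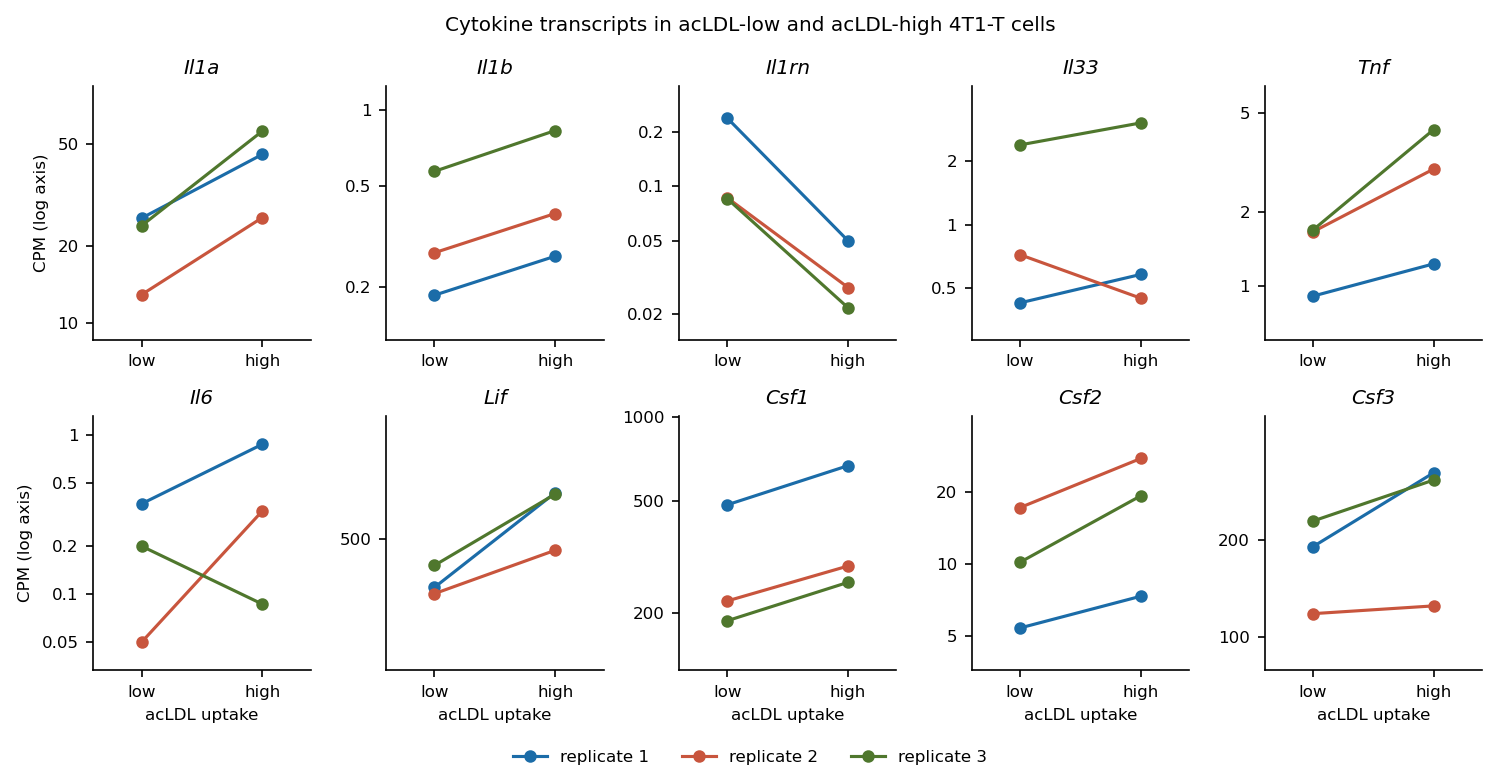
Each panel gives the level of a member in CPM on a log axis of its own, in acLDL-low and acLDL-high cells, and lines join the libraries of 1 replicate number. The lines run upwards in all 3 pairs for Il1a, Il1b, Tnf, Lif, Csf1, Csf2 and Csf3 and downwards in all 3 for Il1rn, while those of Il33 and Il6 cross.

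Il1a encodes interleukin-1 alpha, which is active as a precursor and is released by damaged or stressed cells. The gene (ENSMUSG00000027399) lies from 129299610 to 129309972 on the minus strand of chromosome 2 (GRCm38, as do all gene positions given). Its level in replicates 1, 2 and 3 was 25.6, 12.9 and 23.9 CPM in the acLDL-low population, against 45.5, 25.8 and 56.1 CPM in the acLDL-high population. Every acLDL-high library was above every acLDL-low library, which held for 1.23% of all genes tested, and replicate 2 was the lowest in both populations. The highest acLDL-low and the lowest acLDL-high values almost touched, at 25.6 and 25.8 CPM. Within pairs the log2 difference was 0.83, 1.00 and 1.23, and the fitted log2 fold change was 1.02 ± 0.07 (SE). Its exons overlap 222 bases of Gm14023 on the opposite strand, and the strand setting of the counting is not given in the sources used here.

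Il1b encodes interleukin-1 beta, which needs cleavage by caspase-1 to become active. It lies 54597 bases from Il1a, from 129364570 to 129371139 on the minus strand of chromosome 2 (ENSMUSG00000027398), and had few counts. Counts were 14, 22 and 40 in acLDL-low and 21, 28 and 77 in acLDL-high cells, which is 0.185, 0.272 and 0.571 CPM against 0.264, 0.389 and 0.829 CPM. The populations overlapped, and replicate 3 was the highest in both. The log2 difference was close in the 3 pairs, at 0.46, 0.48 and 0.52, but the standard error at these counts was large (0.52 ± 0.30). Il1b did not pass the threshold. Its exons overlap 25 bases of Il1bos on the opposite strand, with the same uncertainty about strand as for Il1a.

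Il1rn encodes the interleukin-1 receptor antagonist, which occupies the receptor without signalling, and was the member with lower values in acLDL-high cells. The gene (ENSMUSG00000026981) lies from 24336853 to 24351494 on the plus strand of chromosome 2. It had 18, 7 and 6 counts in acLDL-low and 4, 2 and 2 counts in acLDL-high cells. All acLDL-high libraries were below all acLDL-low libraries, as were 1.63% of the genes tested, but Il1rn was too low for the filter on counts and was not among them. Over the libraries of a population, the 8 counts in acLDL-high against 31 in acLDL-low cells gave a rate ratio of 0.239. Its exact 95% interval of 0.0950 to 0.532 covers counting error only and takes each count as independent. Low counts were often even, as for Csf1r in acLDL-low (0, 2 and 0) and acLDL-high cells (4, 2 and 4). If both mates of a read pair were counted, the interval is too narrow even for counting error, which was not tested. In acLDL-high replicates 2 and 3, the 0.0278 and 0.0215 CPM of Il1rn lay under the level of 3 counts.

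Il33 encodes interleukin-33, a nuclear alarmin that signals through ST2, and lies from 29925114 to 29960718 on the plus strand of chromosome 19 (ENSMUSG00000024810). Its level was 0.423, 0.718 and 2.40 CPM in acLDL-low and 0.578, 0.445 and 3.06 CPM in acLDL-high cells. Replicate 3 stood above the rest in both populations, and within a population the highest library was 5.67 and 6.87 times the lowest. The pairs disagreed in sign, with log2 differences of 0.43, -0.66 and 0.35, and the fitted log2 fold change was 0.12 ± 0.23 (SE), which became -0.13 without replicate 3.

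Tnf (ENSMUSG00000024401) lies from 35199381 to 35202007 on the minus strand of chromosome 17 and encodes tumour necrosis factor, which is made on the membrane and shed by ADAM17. Its level was 0.912, 1.66 and 1.69 CPM in acLDL-low and 1.23, 2.98 and 4.29 CPM in acLDL-high cells. The populations overlapped through replicate 1, which was the lowest in both. The log2 difference was 0.42, 0.83 and 1.34 in the pairs, and the fitted value was 0.93 ± 0.18 (SE). This low-level message, with 69 to 399 counts a library, carries the AU-rich repeats printed above, and the CK-1 core lies in the promoter window of the gene.

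Il6 (ENSMUSG00000025746) encodes interleukin-6, the inducer of the acute-phase response, and lies from 30013114 to 30019981 on the plus strand of chromosome 5. Counts were 28, 4 and 14 in acLDL-low and 70, 24 and 8 in acLDL-high cells. Replicates 1 and 2 were higher and replicate 3 was lower in acLDL-high cells, with log2 differences of 1.19, 2.26 and -1.01. The populations overlapped, and the fitted log2 fold change of 0.99 had a standard error of 0.51. Between occasions the level differed by 7.47 times in acLDL-low and 10.2 times in acLDL-high cells.

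Lif encodes leukaemia inhibitory factor, which signals through LIFR and gp130, and was the other member without overlap among the 9 tested. It lies from 4257557 to 4272514 on the plus strand of chromosome 11 (ENSMUSG00000034394). Its level was 386, 374 and 434 CPM in acLDL-low and 638, 471 and 634 CPM in acLDL-high cells, or 398 ± 31.9 against 581 ± 95.7 CPM (SD, n = 3). Pairs 1 and 3 were further apart than pair 2, with log2 differences of 0.73, 0.55 and 0.33. The fitted value was 0.53 ± 0.06 (SE). Lif varied little between occasions, by 1.16 times in acLDL-low and 1.36 times in acLDL-high cells.

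Csf1 encodes M-CSF, the growth factor of macrophages, and lies from 107741048 to 107760469 on the minus strand of chromosome 3 (ENSMUSG00000014599). Its level was 485, 220.1 and 187 CPM in acLDL-low and 669, 293 and 257 CPM in acLDL-high cells. Replicate 1 was the highest in both populations by a wide margin, so the populations overlapped although each pair gave nearly the same log2 difference (0.46, 0.41 and 0.46). The fitted value was 0.44 ± 0.04 (SE). Csf1 thus differed more between occasions, by 2.59 times in acLDL-low and 2.61 times in acLDL-high cells, than between populations, by 1.33 to 1.38 times within pairs.

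Csf2 encodes GM-CSF, which acts on granulocytes and macrophages, and lies from 54247271 to 54249667 on the minus strand of chromosome 11 (ENSMUSG00000018916). Its level was 5.38, 17.1 and 10.1 CPM in acLDL-low and 7.30, 27.5 and 19.2 CPM in acLDL-high cells. Replicate 2 was the highest and replicate 1 the lowest in both populations, which overlapped. Log2 differences were 0.44, 0.68 and 0.92 in the pairs, with a fitted value of 0.70 ± 0.08 (SE). Its exons overlap 96 bases of Gm12223 on the opposite strand.

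Csf3 encodes G-CSF, the growth factor of neutrophils, and lies from 98701263 to 98703629 on the plus strand of chromosome 11 (ENSMUSG00000038067). Its level was 191, 118 and 229 CPM in acLDL-low and 325, 125 and 308 CPM in acLDL-high cells. Pair 2 was nearly level, with a log2 difference of 0.08, whereas pairs 1 and 3 differed by 0.77 and 0.43. The populations overlapped through replicate 2, the lowest in both, and the fitted value was 0.43 ± 0.09 (SE). Csf1 and Csf3, at a similar fitted difference, thus differed in how even it was over the pairs, with a standard deviation of the pair differences of 0.027 for Csf1 and 0.34 for Csf3.

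**Figure D4:**
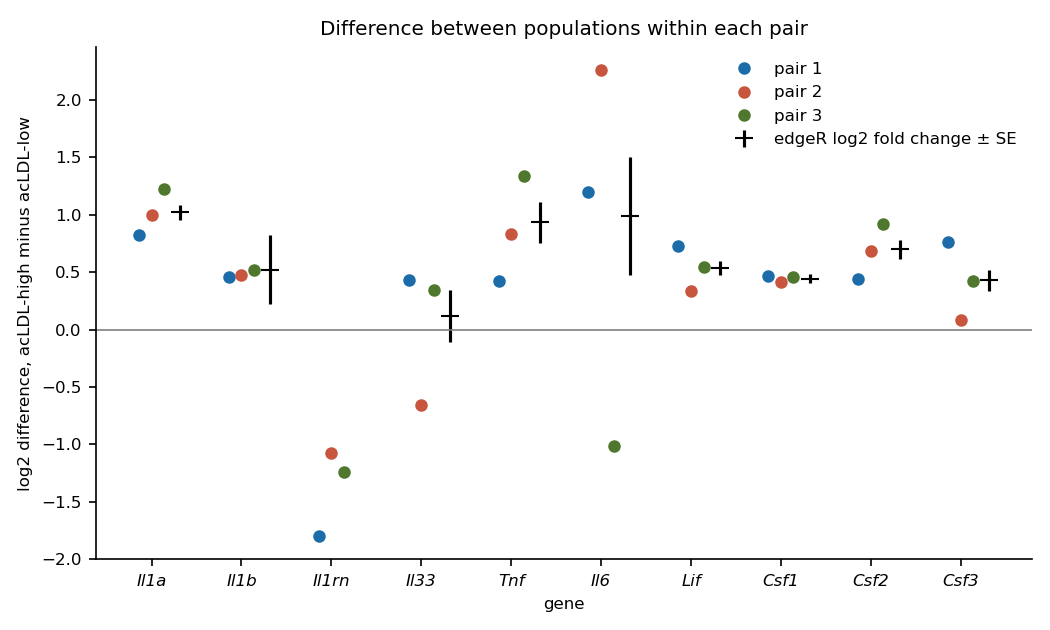
Points give the log2 difference in CPM (prior count 2) between the acLDL-high and the acLDL-low library of each pair, and the black mark gives the fitted log2 fold change with its standard error. The pairs lie close together for Csf1 (0.41 to 0.46) and Il1b (0.46 to 0.52) and spread from -1.01 to 2.26 for Il6, and Il1rn has no fitted value.

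The members did not share 1 order of occasions. Il1a and Csf3 were lowest in replicate 2 of both populations, Csf2 was highest there, Csf1 was highest in replicate 1, and Il1b and Il33 were highest in replicate 3. Across the 6 libraries, the 5 genes whose log2 CPM was most like that of Il1a, among 10491 non-member genes, were Nek7, Rnft1, Nedd9, Mocs2 and Il13ra1, with Pearson's r from 0.973 to 0.982. For Lif, the member with the highest mean CPM, they were Sgms2, Ddt, Eci2, Xiap and Stk24, with r from 0.957 to 0.983. These are descriptions over 6 libraries that are paired by occasion.

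The partners of the cytokines were read from 8 lists with 137 genes: receptors and signalling molecules, processing enzymes, related ligands and mRNA decay factors. Of these genes, 103 were tested and 11 of those with an ID had 0 counts. In acLDL-high cells, 6 of the 103 rose (5.83%) and 1 fell (0.971%), against the 3.43% and 1.32% of all genes tested. Their median log2 fold change was 0.05. Adjusted p-values for these genes are from edgeR's quasi-likelihood test.

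Of the IL-1 receptors and signalling genes, 3 of 16 tested rose and 0 fell. Il1r1, the signalling receptor of both IL-1 ligands, was at 45.2, 23.7 and 42.8 CPM in acLDL-low and 60.5, 27.2 and 51.7 CPM in acLDL-high cells. The populations overlapped through replicate 2, but each pair was higher in acLDL-high cells, by 0.30 ± 0.05 (SE) on the log2 scale (adjusted p = 0.00669). Il18rap, the accessory chain of the IL-18 receptor, rose by 0.38 ± 0.06 (adjusted p = 0.00200). The gene of the other chain of that receptor, Il18r1, had 0 to 4 counts and was not tested. Il1rl1, which encodes the IL-33 receptor ST2, rose by 0.85 ± 0.22 (adjusted p = 0.0432) from counts of 20 to 70 to counts of 59 to 105. The accessory chain gene Il1rap had a log2 fold change of 0.15 (adjusted p = 0.142) and overlaps Gm20319 on the opposite strand. The decoy receptor gene Il1r2 had 2 to 8 counts and was not tested.

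Of the genes for IL-1 processing and release, 1 of 17 rose and 1 fell. P2rx7, the ATP-gated channel that triggers inflammasome activation, was at 4.40, 1.83 and 1.49 CPM in acLDL-low and 1.72, 0.723 and 1.03 CPM in acLDL-high cells. It was lower in each pair, by -1.09 ± 0.19 on the log2 scale (adjusted p = 0.00616), although replicate 1 of the acLDL-high cells was above replicate 3 of the acLDL-low cells. Its exons overlap Mir8115 on the same strand. Aim2, a DNA sensor of the inflammasome, rose by 0.85 ± 0.22 (adjusted p = 0.0458) and varied widely between occasions, from 8 to 106 counts in acLDL-low and 16 to 236 in acLDL-high cells. The adaptor gene Pycard and the sensor gene Nlrc4 had 0 counts. The exons of Pycard overlap Gm45205 on the opposite strand, and the strand setting of the counting is not given in the sources used here. Il1rl1 and Aim2 lay close to the threshold. Neither passed in DESeq2 (adjusted p = 0.185 and 0.182), without replicate 1 (0.0825 and 0.110) or without replicate 3 (0.223 and 0.337), and Il1rl1 did not pass without replicate 2 (0.0558). Nek7, named above for its likeness to Il1a, is in this list too and just missed the threshold (log2 fold change 0.15, adjusted p = 0.0575). It passed in DESeq2, with DESeq2 size factors, without the filter on low counts, with all gene IDs and without replicate 2. In the other settings it did not pass.

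Of the TNF receptors and signalling genes, 0 of 19 passed, and their log2 fold changes lay between -0.15 and 0.16. Tnfrsf1a, the receptor on most cells, was at 64.6, 65.2 and 67.0 CPM in acLDL-low and 73.5, 60.5 and 68.0 CPM in acLDL-high cells (log2 fold change 0.03, adjusted p = 0.796). Tnfrsf1b, the second TNF receptor, had a log2 fold change of -0.12 with lower values in each pair (adjusted p = 0.159). Among 7 tested genes of other TNF superfamily ligands, none passed. Of the 8 genes of other IL-1 family ligands, 5 were not matched to an ID by the symbols used, so no counts were read for them. Of the others, 2 were tested and 0 passed.

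None of the 20 tested genes of the IL-6 family passed. Il6st, which encodes the shared signalling chain gp130, was at 224, 146 and 196 CPM in acLDL-low and 222, 151 and 196 CPM in acLDL-high cells, a log2 fold change of 0.01 ± 0.04 (adjusted p = 0.944). Il6ra, which overlaps Gm42809 on the opposite strand, had a log2 fold change of -0.03 (adjusted p = 0.809). Lifr, the receptor of the abundant Lif message, had 6 to 37 counts and a log2 fold change of 0.43 with a standard error of 0.43 (adjusted p = 0.640).

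The receptors of the colony-stimulating factors were at or near 0. Csf3r and Csf2ra had 0 counts in all 6 libraries, and Csf1r had 0 to 4 counts. Csf2rb had 2 to 39 counts (log2 fold change 0.10, adjusted p = 0.927), which could be split with its near-copy Csf2rb2. Of the other growth factors in this list, Tslp, the epithelial cytokine thymic stromal lymphopoietin, was the gene that passed, 1 of 6 tested. It was at 94.6, 35.9 and 87.0 CPM in acLDL-low and 161, 42.0 and 140.3 CPM in acLDL-high cells, a rise of 0.57 ± 0.08 (adjusted p = 0.00119), with the lowest level in replicate 2 as for Il1a and Csf3. Of the mRNA decay factors, 1 of 16 passed: Zc3h12a, which encodes the endonuclease Regnase-1 that degrades cytokine messages, rose by 0.32 ± 0.06 (adjusted p = 0.00783), while the other 15 did not pass.

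**Figure D5:**
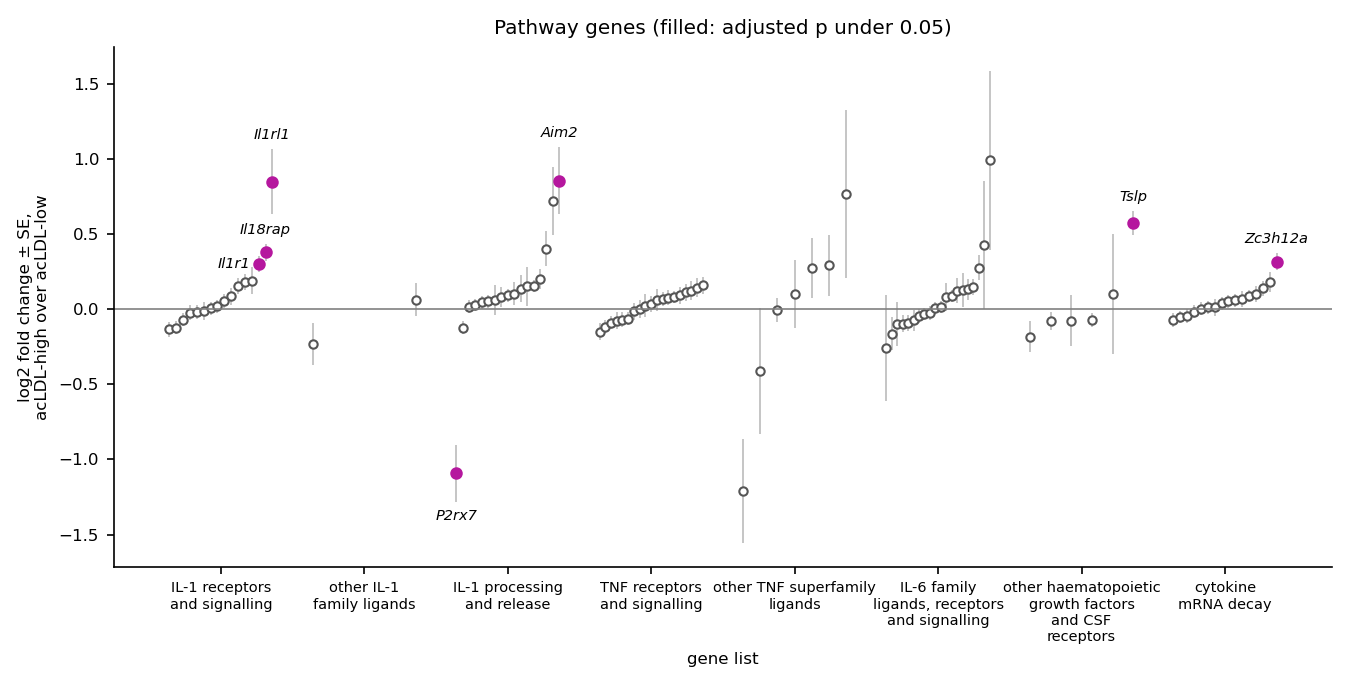
Each point is the log2 fold change of a tested gene in acLDL-high over acLDL-low cells with its standard error, sorted within each of the 8 lists, and filled points passed an adjusted p of 0.05. The filled points are Il1r1, Il18rap, Il1rl1, Aim2, Tslp and Zc3h12a above 0 and P2rx7 below, and the list of TNF receptors and signalling genes stays between -0.15 and 0.16.

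Without replicate 3, Il18rap and P2rx7 were the genes of these lists that still passed, and Il1r1, Tslp and Zc3h12a had adjusted p-values of 0.0749, 0.0610 and 0.0584.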

How the data were processed

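RNA-Seq libraries of 3 acLDL-low and 3 acLDL-high samples of 4T1-T cells were analysed. Per the labels and the paper's methods, the authors aligned paired-end reads from a stranded kit to mm10 with STAR (version 2.5.2a), counted reads per gene with featureCounts (version 1.4.3-p1) and deposited raw counts without normalization. The annotation release and the strand setting are not given in the sources used here. The authors' deposited comparison from DESeq2 (version 1.20.0) holds mean counts, fold changes, standard errors, statistics and p-values, of which none was used, and other columns with gene IDs and names, which defined the protein-coding genes.

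Counts were fitted with edgeR (version 4.0.16, R version 4.3.3) after filterByExpr and TMM scaling, with the replicate number as a block, which left 2 residual degrees of freedom. Fits that left out a pair had 1. Benjamini-Hochberg adjustment of the quasi-likelihood p-values ran over 12572 genes, with a threshold of 0.05. Same-numbered libraries, taken here as 1 occasion, deviated together from their group means (r = 0.795 to 0.846). The negative values of the other combinations (-0.557 to -0.0882) partly follow from subtracting the group means and do not bear on the pairing. As the occasions used the same line, p-values measure the spread between repeats of 1 clone. CPM used TMM-scaled totals, and pair differences a prior count of 2. Intervals and the limit of 3 counts cover counting error only and take each count as an independent fragment. Positions, exon lengths and 3′ UTRs came from GENCODE M21 on GRCm38 and promoters from RefSeq. The fit was also run on data simulated from its own model, which tests neither the pairing nor the variance of the real counts.

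The members and lists were chosen with earlier results of these data known. Named are the 10 members, every list gene past the threshold (at most 5 a list), 13 receptors and the 5 genes most like Il1a and Lif. Pycard, Nlrc4, Il18r1, Cd14, Cldn3, Cldn4, Cldn7, Pdgfra, the markers at 0 and the partners in exon overlaps were named after their values were seen. Alternatives were no replicate block, DESeq2 size factors, DESeq2 (version 1.42.0), no filter on low counts, at least 10 counts in every library, all gene IDs, and leaving out each pair.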

Additional observations from a re-analysis of the deposited data

How the results depend on the processing

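Without the replicate block, edgeR called 0 of 12329 genes (45 at an unadjusted p under 0.05), 0 members and 0 pathway genes, against 597, 6 and 7 with it, whereas DESeq2 with the replicate number called 468, 5 and 6. Without a filter on low counts, 932 genes, 6 members and 13 pathway genes passed. Leaving out each pair in turn gave 126 to 869 genes, 4 to 6 members and 2 to 16 pathway genes, the lowest without replicate 3 and the highest number of genes and pathway genes without replicate 2. Each of these fits had 1 residual degree of freedom, which limits their calls and adjusted p-values. Among the members and named pathway genes, no log2 fold change that had passed changed its sign, but 4 that had not passed did. Il33 went from 0.12 to -0.13 without replicate 3. Leaving out each pair in turn put Csf2rb between -0.11 and 0.24, Tnfrsf1a between -0.042 and 0.102 and Il6st between -0.011 and 0.021, and Csf2rb was at -0.096 in DESeq2. The causes of these changes were not tested. The fold changes rest on 3 pairs, and depth limits Il1b, Il6 and Il1rn, which had at most 77 counts in a library.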
